A study of Mus musculus with 12 samples.

Results

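The PBS-injected retina was described from the Cy3 channel of 2-colour Agilent mouse arrays. All 12 arrays of the series carried RNA of PBS-injected eyes in Cy3, so 12 of its 24 array channels were used. The 4 arrays that share a replicate number, which lie on 1 slide, were averaged to 1 PBS pool, and this gave 3 pools. A tube held 4 retinas of male C57BL/6 mice, 5 weeks old, taken 7 days after phosphate-buffered saline had been injected into the vitreous of the right eye. The labels give 12 mice per group. The Cy5 channel of the same arrays held retina exposed to gold or silicate particles of 20 nm or 100 nm, with 3 tubes in each of the 4 groups, and is used here only for values set beside those of PBS. The label of strain for the PBS channel reads C57BL/6 on 6 arrays and has a different last number on each of the other 6. There was no uninjected eye among these samples, so every level is that of an injected one. The labels do not say which tube of PBS retina went onto which array, so that a pool may hold more than 1 tube, and a pool cannot be told apart from its slide.

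The retina is a layered neural tissue in which rods and cones turn light into a fall in glutamate release. Bipolar, horizontal and amacrine cells process that signal, ganglion cells send it to the brain, and Müller glia span the layers. Rods make up most of the cells of a mouse retina and depend on the pigment epithelium behind them, while the lens, the cornea and the ciliary body lie in front and are not retina. An injection into the vitreous passes through the wall of the eye, and resident microglia and blood-borne leukocytes are the cells known to answer to such injury.

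Promoter sequences are given first for members of the gene groups that the results turn on, to show where letters of well-known binding sites lie in them. They come from RefSeq on GRCm38.p6 and run from 250 bases before to 50 bases after the gene start, on the strand of the gene. Shown are the 2 brightest members of each group that have a single promoter in the table and hold the letters. For rods, the letters TAATCC of the CRX site, on either strand, were found in 10 of 19 listed genes with a promoter in the table (52.6%), against 8.14% of 27018 genes overall. The melanin list had a like share, 3 of 6 genes. The capitals mark them in Gngt1, the gamma subunit of rod transducin, at chr6:3993758-3994057 on the plus strand, 44 bases before the start. They mark them also in Cngb1, a subunit of the rod cyclic nucleotide-gated channel, at chr8:95306536-95306835 on the minus strand, 58 and 25 bases before the start.
Gngt1: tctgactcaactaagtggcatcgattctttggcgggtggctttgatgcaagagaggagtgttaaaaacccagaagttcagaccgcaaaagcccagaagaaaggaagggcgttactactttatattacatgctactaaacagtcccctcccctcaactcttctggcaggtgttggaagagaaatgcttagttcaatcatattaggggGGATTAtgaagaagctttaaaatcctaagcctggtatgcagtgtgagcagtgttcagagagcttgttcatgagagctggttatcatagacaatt
Cngb1: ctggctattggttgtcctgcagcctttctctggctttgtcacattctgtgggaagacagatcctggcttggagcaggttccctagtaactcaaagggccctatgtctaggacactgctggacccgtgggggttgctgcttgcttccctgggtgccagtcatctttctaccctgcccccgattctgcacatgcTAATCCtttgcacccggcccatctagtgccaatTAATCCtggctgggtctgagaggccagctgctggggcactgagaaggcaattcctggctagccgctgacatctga

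For interferon-induced genes, the interferon-stimulated response element, GAAA and GAAA with 2 bases of any kind between them, on either strand, was found in 14 of 20 genes (70.0%), against 3.99% of all genes. Stat2, which carries the interferon signal to the nucleus, holds them at chr10:128270248-128270547 on the plus strand, 222 bases before the start. Ifit3, an inhibitor of viral RNA translation, holds them at chr19:34583279-34583578 on the plus strand, 156 and 122 bases before the start. In both, the capitals show the reverse complement.
Stat2: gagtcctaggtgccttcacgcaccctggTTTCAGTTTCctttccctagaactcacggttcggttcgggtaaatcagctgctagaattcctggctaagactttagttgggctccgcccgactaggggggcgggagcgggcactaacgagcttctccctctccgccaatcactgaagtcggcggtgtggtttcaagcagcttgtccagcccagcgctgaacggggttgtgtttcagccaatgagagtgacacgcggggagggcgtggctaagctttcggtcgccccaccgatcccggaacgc
Ifit3: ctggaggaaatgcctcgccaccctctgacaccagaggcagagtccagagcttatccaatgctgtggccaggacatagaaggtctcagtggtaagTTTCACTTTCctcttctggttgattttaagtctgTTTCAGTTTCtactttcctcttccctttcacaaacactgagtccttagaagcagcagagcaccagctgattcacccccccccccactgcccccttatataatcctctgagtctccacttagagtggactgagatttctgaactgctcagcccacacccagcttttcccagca

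For lens genes, the letters TGCTGAC of the core site of MAF and NRL, on either strand, were found in 6 of 23 genes (26.1%), against 5.27% of all genes. Other lists had as high a share, with 2 of 7 ganglion genes (28.6%), 2 of 7 neuropeptide genes (28.6%) and 3 of 12 skeletal muscle genes (25.0%), while 1 of 19 rod genes (5.26%) held them. Cryaa, the alpha-A crystallin, holds them at chr17:31677681-31677980 on the plus strand, 108 bases before the start. Cryba1, a beta crystallin, holds them at chr11:77725244-77725543 on the minus strand, 57 bases before the start. A match to letters is a description of the sequence, and no binding was measured.
Cryaa: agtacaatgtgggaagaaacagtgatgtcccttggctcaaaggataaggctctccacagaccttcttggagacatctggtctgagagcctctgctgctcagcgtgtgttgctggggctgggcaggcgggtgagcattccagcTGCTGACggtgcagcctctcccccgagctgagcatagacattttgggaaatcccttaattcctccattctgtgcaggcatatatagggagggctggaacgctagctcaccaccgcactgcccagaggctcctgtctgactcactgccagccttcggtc
Cryba1: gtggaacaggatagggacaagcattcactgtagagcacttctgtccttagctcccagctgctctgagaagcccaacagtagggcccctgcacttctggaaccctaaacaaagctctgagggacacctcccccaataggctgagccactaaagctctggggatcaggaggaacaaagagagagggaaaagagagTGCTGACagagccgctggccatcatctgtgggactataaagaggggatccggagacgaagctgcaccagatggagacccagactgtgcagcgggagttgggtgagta

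Levels are log2 intensities after background correction and quantile normalization of the Cy3 channel. A difference of 1 is a 2-fold difference of these intensities, which include a constant offset added in background correction. For dim genes it therefore stands for more than a 2-fold difference of signal without the offset. With plain subtraction instead, the median range between pools over neutrophil genes was 5.39, against 3.05 here. A gene counted as above background when its probe was marked well above background on all 4 arrays of at least 1 pool, and this held for 23093 genes, of which 15618 had a symbol. Of these, 21039 (91.1%) were above background in all 3 pools. The share of spots well above background was 69.45% to 74.77% per array, and no spot was saturated. Because the affinity of a probe affects its brightness, the order of levels is an order of probe signals and only a rough guide to the order of transcripts.

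The arrays of a pool were close to each other for most genes. The median SD of a gene over the 4 arrays was 0.0483 in pool 1, 0.0482 in pool 2 and 0.0467 in pool 3. Over the 3 pools the median SD was 0.189. Across the 23093 genes, which are not independent replicates, Pearson's r was 0.951 between pools 1 and 2, 0.958 between pools 1 and 3, and 0.994 between pools 2 and 3. Pool 1 therefore stood apart from the other 2. The median difference of a gene in pool 1 from the mean of the others was -0.16 on the log2 scale, and -0.23 to -0.08 over the 5 ways of scaling tried, so differences of pool 1 are best read against that shift.

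Sex-linked genes went against the label of male mice in most tubes, and this stands before the results because it touches the make-up of the pools. The Y-linked Ddx3y, which encodes an RNA helicase, was not well above background on any array of pool 1 (5.89 to 6.06) or pool 3 (5.86 to 6.02), but read 9.44 to 9.60 on the arrays of pool 2. Eif2s3y, a Y-linked translation factor, read 6.11 in pool 1, 10.41 in pool 2 and 6.06 in pool 3. Neither was well above background in any of the 12 particle tubes. Both probes of Uty read 6.59 to 6.89 on the arrays of pool 2, where all were well above background, and 5.84 to 6.12 elsewhere in PBS. Kdm5d was well above background on 3 arrays of pool 2 and on 1 array of pool 3. Xist, the RNA that silences an X chromosome in female cells, was well above background in every pool, at 11.64, 11.45 and 12.27, and in all 12 particle tubes (12.09 to 12.60). Only in pool 2 were Ddx3y, Eif2s3y and Uty thus above background, beside Xist. The cause was not tested.

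Pool 3 also stood apart, since its 4 arrays did not read alike for a small group of genes. On the 2 arrays that also carried silicate tubes, 57 genes read at least 1 log2 unit higher in Cy3 than on the 2 arrays with gold tubes, and 2 read lower. The same count was 18 higher and 1 lower in pool 1, and 0 higher and 1 lower in pool 2. Of the 18 in pool 1, 17 were also at least 1 unit higher in Cy5 on the same arrays. All 57 genes were also at least 1 unit higher in Cy5 on those silicate arrays, with a median difference of 5.54 in Cy5 and 1.52 in Cy3. Saa3, an acute-phase serum amyloid, read 5.99 and 6.31 in Cy3 on the gold arrays and 10.79 and 11.72 on the silicate arrays, where its Cy5 level was 15.77 and 17.09. Ms4a7, a membrane protein of macrophages, had Cy5 levels of 14.44 and 15.04 on those arrays but 7.95 to 8.00 in Cy3 on all 4. A bright partner was thus seen with a raised PBS reading in some genes and not in others, and the cause was not tested. Of 348 genes at least 3 units higher in Cy5 on the silicate arrays of that slide, 54 were at least 1 unit higher in Cy3. Where a named gene differed so in pool 3, its level on the gold arrays is given beside the mean.

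**Figure D1:**
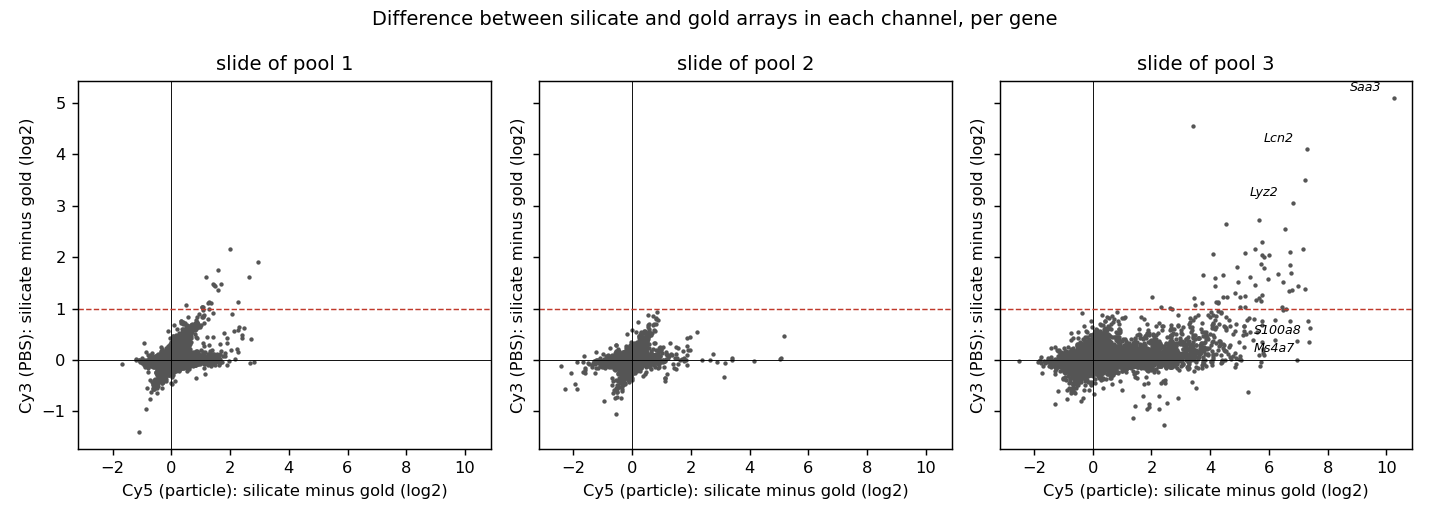
Difference between the silicate and the gold arrays of a slide, for each of 23093 genes, with the particle channel (Cy5, log2 units) on the horizontal axis and the PBS channel (Cy3, log2 units) on the vertical axis. The dashed line marks 1 log2 unit, and 57 genes lie above it on the slide of pool 3, all of them at a Cy5 difference of at least 1, against 18 on that of pool 1 and 0 on that of pool 2.

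Of the 20 genes with a symbol of highest level, 5 were on the rod list and 3 encode enzymes of glycolysis. Pde6g, the inhibitory subunit of the rod phosphodiesterase, had the highest mean level of any gene with a symbol, 17.42 ± 0.45 (SD, n = 3 pools). Gapdh and Aldoa, both enzymes of glycolysis, followed at 17.38 ± 0.15 and 17.34 ± 0.05. Next came Rom1 at 17.31 ± 0.31 and, after the rod transducin Gnat1 at 17.23 ± 0.31, Prph2 at 17.20 ± 0.21. Rom1 and Prph2 are membrane proteins that shape the discs of the outer segment. Unc119, a carrier of transducin, stood at 17.00 ± 0.23, and Ldha, which makes lactate from pyruvate, at 17.03 ± 0.11. Among the 20 genes of highest level were also Zfp628, Exosc2, Elk1, Ttc38, F10, Milr1, Med16 and Kctd14, at 16.99 to 17.23, with further transcripts of unknown or non-coding kind. Probe choice matters there, since 58 of the 100 brightest genes with a symbol had a further probe on the array, and for 32 of them one such probe was at least 4 log2 units dimmer.

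All 27 listed rod genes were above background in every pool, with a median level at the 99.0th percentile of all genes. The defining cell type of the labelled tissue was thus present. Nrl, the transcription factor that sets rod fate, read 16.61 in pool 1, 17.05 in pool 2 and 16.91 in pool 3, and the arrestin gene Sag read 16.19, 16.46 and 16.63. At the low end, Gucy2e, a guanylate cyclase of photoreceptors, stood at 9.93, 10.72 and 10.79. Pool 1 was the lowest for 26 of the 27 rod genes, against 61.7% of all genes, and the median difference of its level there from the mean of the other pools was -0.59 (-0.78 to -0.49 over the 5 scalings). None of the 27 reached the 2-fold rule used below.

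The 12 cone genes were also all above background in each pool. Pde6h, the inhibitory subunit of the cone phosphodiesterase, read 15.16, 15.35 and 15.31 in pools 1, 2 and 3. The medium-wavelength opsin Opn1mw read 13.53, 14.66 and 13.98. Opn1sw, the short-wavelength opsin, read 8.62, 8.46 and 9.71, and its pool 3 level was above both others by more than 1 unit. Opn1mw was thus highest in pool 2 and Opn1sw in pool 3.

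Inner retinal neurons gave lower levels than rods, again mostly lowest in pool 1. Among 12 bipolar genes, Pcp2, a regulator of G proteins in ON bipolar cells, read 15.11, 15.82 and 15.83. Of 20 amacrine and horizontal genes, the glycine transporter gene Slc6a9 was the brightest, at 14.14, 14.68 and 14.73. Tyrosine hydroxylase (Th), which marks dopaminergic amacrine cells, read 10.13, 10.98 and 10.58. Of 17 ganglion cell genes, Thy1 led at 14.32, 15.07 and 15.02, the neurofilament gene Nefl read 13.54, 14.44 and 14.06, and melanopsin (Opn4) was near the floor at 6.61, 7.08 and 7.09. All 20 amacrine and horizontal genes and all 17 ganglion genes were lowest in pool 1, with median differences from the mean of the others of -0.70 and -0.73. Genes of the synapse (17 of 17 lowest in pool 1, median difference -0.58), receptor subunits (17 of 17, -0.75) and neuropeptides (10 of 10, -0.77) were placed alike. Of these 5 lists, only the glutamate transporter gene Slc17a7, of the synapse list, passed the 2-fold rule, at 11.65, 13.18 and 12.71. Leukocyte genes were far higher in pool 1, as given below, and their part in these lower levels was not tested. In tissue RNA, fewer cells of a type and less RNA per cell cannot be told apart.

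Transcription factors of retinal identity were lowest in pool 1 for 16 of 18. Otx2, which specifies photoreceptors, read 15.34, 15.43 and 15.53. Crx, its partner in photoreceptor gene expression, read 12.33, 12.92 and 12.95. Sox2, a factor of Müller glia and some amacrine cells, read 8.97, 8.96 and 8.99, a range of 0.03. The median range between pools over the 18 factors was 0.56, against 0.36 over all genes.

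Müller glia genes had no common order in the 3 pools, with a median range of 0.40, against 0.36 over all genes. Of 12 genes, 5 were highest in pool 1, 4 in pool 2 and 3 in pool 3. Clu, a secreted chaperone, read 16.55, 16.44 and 16.68. Glutamine synthetase (Glul) read 14.74, 15.44 and 15.34, and the retinaldehyde carrier gene Rlbp1 13.38, 14.17 and 14.04. Only Apoe, which carries lipids and is made by glia and macrophages, passed the 2-fold rule, at 16.82, 15.57 and 15.08, with 15.51 on the gold arrays of pool 3.

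Of the housekeeping groups, ribosomal protein and respiratory chain genes were closer between pools than the median gene, and glycolysis genes were not. Levels of such groups can move with scaling, and the median difference of pool 1 over the ribosomal genes was 0.16 but -0.01 to 0.21 over the 5 scalings. The median range between pools was 0.21 over 24 ribosomal protein genes, 0.21 over 28 respiratory chain genes and 0.36 over 22 glycolysis genes. Over all genes it was 0.36. Among the 500 brightest genes, the smallest ranges were those of the hexokinase Hk1 (16.28, 16.30 and 16.30), the tubulin Tubb5 (15.00, 14.98 and 15.00), the proton pump subunit Atp6v0c (14.74, 14.71 and 14.72), the cyclophilin Ppia (16.91, 16.88 and 16.88) and the superoxide dismutase Sod1 (14.79, 14.80 and 14.76). Of 18 clock genes, 17 were above background, with a median range of 0.45. Dbp, a clock output factor, read 14.44, 14.94 and 15.27, and Arntl, a core activator of the clock, 11.99, 12.35 and 12.44.

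Genes of neighbouring tissues were detected in every pool. The liver, testis, pancreas, lung, kidney and pituitary list served as a check, and 12 of its 20 genes, such as the albumin gene Alb and the surfactant gene Sftpc, were not above background in any pool. Its other 8 were above background in all 3. Of lens genes 25 of 26, of pigment epithelium genes 8 of 9 and of melanin genes all 10 were above background in at least 1 pool. In all 3 pools, 22 lens, 8 pigment epithelium and 9 melanin genes were. The same filter kept 28317 of the 39429 probes on the array. Cryaa, a gene of lens fibres that is also known in retina, read 14.15 in pool 1, 17.28 in pool 2 and 16.63 in pool 3. Hba-a2, an alpha globin of red cells, read 13.74, 14.39 and 15.62. Globin was thus lowest in pool 1 and highest in pool 3, an order that also held for Hba-a1, Hbb-bt and Hbb-b2.

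**Figure D2:**
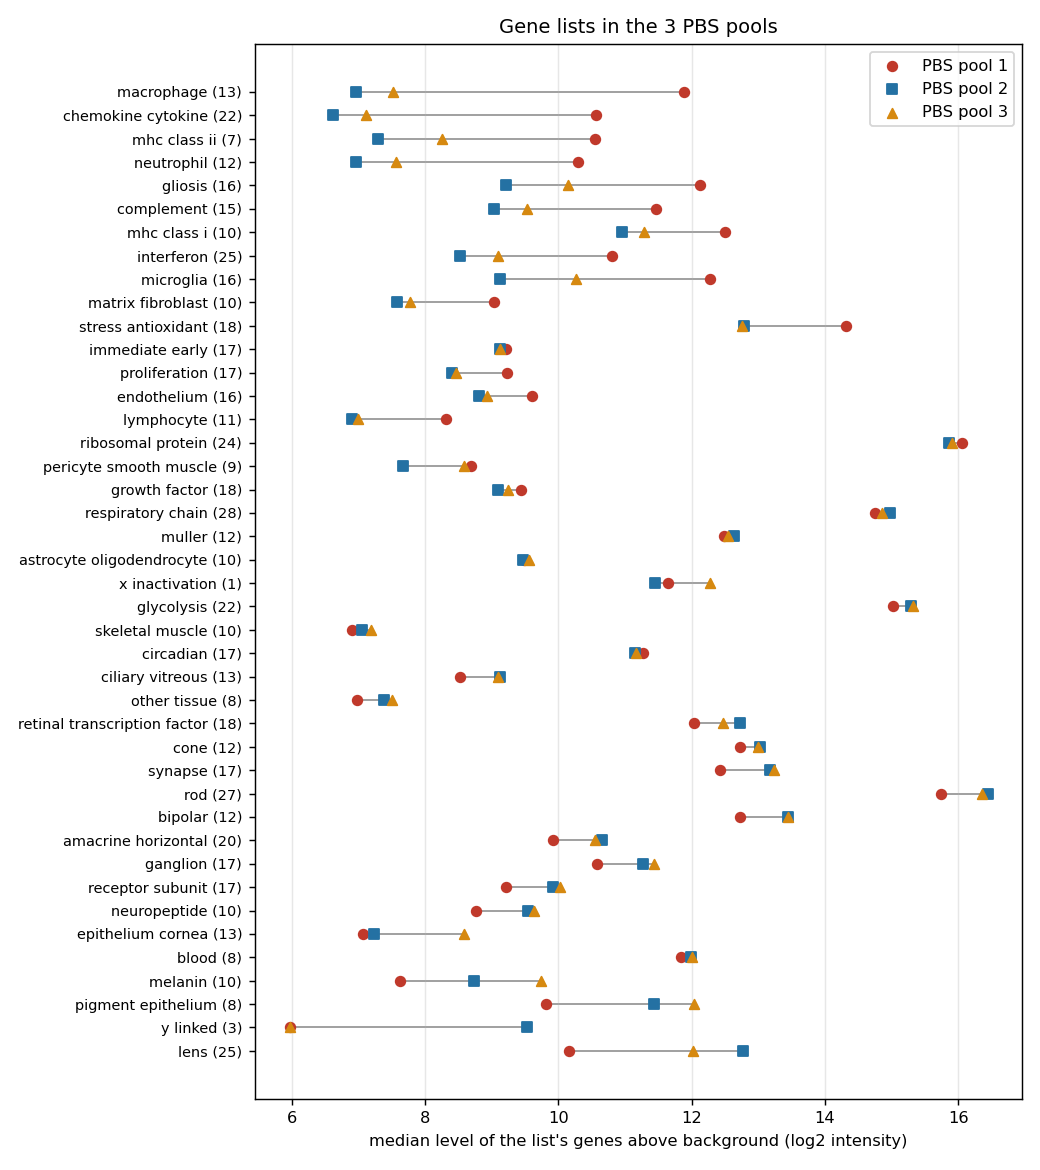
Median level (log2 intensity) of each of 42 gene lists in the 3 PBS pools, sorted by the median difference of pool 1 from the other pools, with the number of genes above background in brackets. Immune lists lie far to the right in pool 1, such as macrophage genes at 11.88 against 6.96 and 7.52, while lens genes lie far to the left there, at 10.16 against 12.77 and 12.02.

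A gene was counted as set apart in a pool when the pool's mean lay at least 1 log2 unit above, or below, both others and none of its 4 arrays overlapped with theirs. By this rule 1533 of 23093 genes (6.64%) were set apart. Pool 1 was higher for 1347 (5.83%) and lower for 84 (0.364%). Pool 2 was higher for 12 (0.052%) and lower for 86 (0.372%), and pool 3 higher for 88 (0.381%) and lower for 2 (0.00866%). Some genes passed the background filter only through the pool where they were high. These were 254 of the 1347 in pool 1, 3 of the 12 in pool 2 and 24 of the 88 in pool 3. The 4 arrays of a pool were treated as repeat readings of 1 sample, which the labels do not state, so these counts carry no test. Without pool 1, only 217 genes were at least 1 unit apart by the same rule, 195 higher in pool 3 and 22 higher in pool 2.

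**Figure D3:**
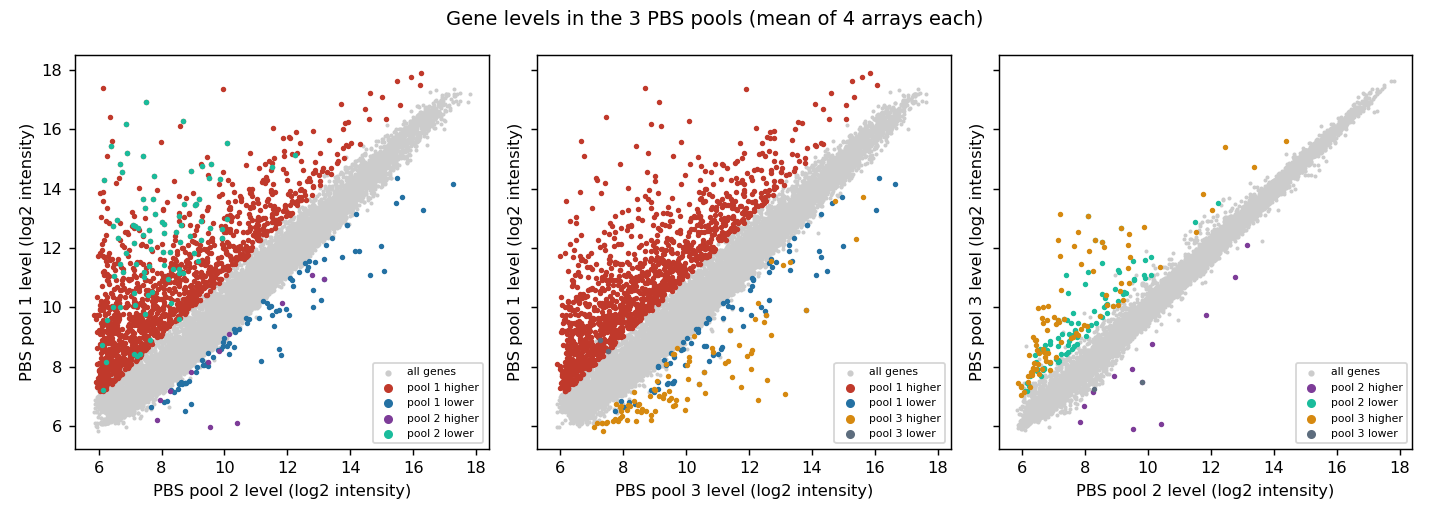
Level of each gene (log2 intensity, mean of 4 arrays) in 1 PBS pool against another, with grey points for all 23093 genes and coloured points for those set apart. The cloud between pools 2 and 3 is narrow (r = 0.994). In both plots of pool 1 the 1347 genes set apart as higher there lie above the cloud, which follows from the rule that picked them.

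Pool 1 held a strong leukocyte and inflammatory profile. Slpi, a secreted inhibitor of neutrophil proteases, read 16.41 in pool 1, 6.35 in pool 2 and 7.44 in pool 3, with 6.39 on the gold arrays of pool 3. S100a8, a calcium-binding protein of neutrophils, read 15.62, 6.42 and 6.66, and was well above background on 3 of 4 arrays in pool 3. Saa3 read 17.41, 6.13 and 8.70 (6.15 on the gold arrays), with the value of 17.41 on each of the 4 arrays of pool 1. The lectin gene Clec4d read 15.09, 6.28 and 6.76, S100a9 read 16.93, 7.50 and 9.12, and the platelet chemokine Pf4 read 16.20, 6.88 and 8.87 (8.15 on the gold arrays). Wfdc21, a whey acidic protein domain gene, was at least 164-fold higher in pool 1 (13.60) than in pool 3 (6.17), where it was not well above background. For Il1b, the cytokine interleukin 1 beta, the levels were 13.89, 6.15 and 6.61, for the chemokine Ccl3 14.37, 6.64 and 7.12 (6.56 on the gold arrays), and for Acod1, which makes itaconate in activated macrophages, 14.30, 6.16 and 7.17 (6.33 on the gold arrays). These 10 genes had the largest gaps above both other pools. That no array of another pool reached those of pool 1 follows from the rule by which they were chosen.

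By cell type, macrophage genes led, with 12 of 13 set apart in pool 1, where 5.83% of all genes were. Of the 13, only 9 were well above background in pool 2 and 10 in pool 3, so some were counted only through pool 1. Spp1, which encodes osteopontin, read 13.77, 8.57 and 8.70, Cd14, a receptor for bacterial lipopolysaccharide, 13.32, 8.04 and 8.48, and Lyz2, the macrophage lysozyme, 12.95, 6.58 and 8.59, with 7.06 on the gold arrays of pool 3. The remaining member, the integrin gene Itgam, was read from its brightest probe at 14.10, 14.88 and 14.79, but another of its probes read 10.53, 7.33 and 7.73. Among 12 neutrophil genes 9 were set apart in pool 1, including the collagenase Mmp8, which at 9.76, 5.95 and 6.05 was at least 11.5-fold higher than in pool 3, and the chemokine receptor Cxcr2, at 8.96, 6.18 and 6.33. The 3 others were Csf3r (15.89, 16.10 and 16.38), Elane (10.93, 11.10 and 10.84) and Mpo (7.68, 7.65 and 7.51). The neutrophil list thus split between genes far higher in pool 1 and genes close in all pools. Of its 12 genes, only 6 were well above background in pool 2 and 7 in pool 3.

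Microglial genes were higher in pool 1 for 11 of 16. Ctss, a lysosomal protease, read 16.06, 11.53 and 12.21, Csf1r, the receptor that microglia need to survive, 15.10, 11.88 and 12.50, and Trem2, a lipid receptor, 12.90, 9.27 and 10.50. Other Csf1r probes read 9.85, 7.26 and 7.58, and 9.99, 9.20 and 9.23. Genes known from resting microglia were not all alike. Tmem119 (9.55, 7.85 and 8.23), Cx3cr1 (11.05, 9.21 and 10.02) and Fcrls (9.75, 8.01 and 8.15) were set apart as higher in pool 1. P2ry12 (7.58, 7.83 and 8.02) and Gpr34 (7.14, 7.41 and 7.74) were lowest there. Lymphocyte genes gave a small part, with 2 of 11 higher in pool 1: the B cell receptor gene Cd79b at 8.32, 6.59 and 6.75, and the granzyme gene Gzma at 8.21, 6.90 and 6.99. Cd3g and Cd8a, which define T cells, and Ms4a1, which defines B cells, were not above background in any pool.

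Antigen presentation genes were higher in pool 1 without exception. All 7 of the class II list were set apart, such as H2-Ab1 at 13.49, 9.08 and 11.20 (10.18 on the gold arrays of pool 3) and Cd74, the invariant chain, at 12.41, 8.90 and 10.06 (9.46 on the gold arrays). All 10 of the class I list were too, such as B2m, the light chain, at 15.70, 11.87 and 12.65, and Nlrc5, the activator of class I genes, at 11.46, 7.18 and 8.19. A further Nlrc5 probe, near the floor, was close in all pools, at 6.61, 6.52 and 6.46. For interferon-induced genes, 21 of 25 were set apart. Stat2 and Ifit3, whose promoters are printed above, read 12.69, 11.24 and 11.42, and 12.54, 10.60 and 11.34. Oas1a, a sensor of double-stranded RNA, read 13.15, 7.78 and 9.49. The 4 others included Ifit2 (8.51, 8.12 and 8.21), Ifi44 (8.13, 6.78 and 7.31) and Iigp1 (9.32, 9.53 and 9.52). Across all genes set apart as higher in pool 1 that have a promoter in the table, 9.7% held the letters of the interferon-stimulated response element, against 3.99% of all genes.

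Of 22 chemokine and cytokine genes, 16 were higher in pool 1. All 22 were well above background in pool 1, against 11 in pool 2 and 13 in pool 3. Ccl2, which attracts monocytes, read 12.33, 6.61 and 7.70 (6.97 on the gold arrays), and Tnf read 11.19, 6.15 and 6.57. Cxcl2, which attracts neutrophils, was at least 31.1-fold higher at 11.24 than in pool 3 (6.25). Il6 read 7.69 in pool 1 and was not well above background in the others. Cxcl13, a B cell attractant, was the lowest in pool 1, at 6.86, 7.53 and 7.11. In the complement list, 9 of 15 were higher, led by C3, the central component, at 14.84, 9.25 and 10.13 (9.63 on the gold arrays), while the regulators Cd59a (11.83, 12.33 and 12.42) and Cfi (8.58, 9.56 and 9.01) were not.

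Of 16 genes listed for glial stress, 14 were set apart as higher in pool 1. Which cells gave these levels in tissue RNA was not tested. Lcn2, an iron-binding lipocalin, read 17.36, 9.94 and 11.90, with 9.85 on the gold arrays of pool 3. Gfap, the filament of astrocytes and stressed Müller glia, read 10.46, 8.88 and 9.15, a 2.48-fold difference from the nearer pool. Other Gfap probes were less than 1 unit higher in pool 1, at 9.53, 8.64 and 8.64, and at 6.69, 6.40 and 6.37. Edn2, which injured photoreceptors are known to release, read 13.87, 10.85 and 10.52. Cp, the ferroxidase ceruloplasmin, read 15.71, 12.10 and 12.79. Nes and Stat3 were highest in pool 1 too, at 9.79, 8.54 and 8.79 and at 13.76, 12.51 and 12.87, with Stat3 within 1 unit of pool 3. Against these, the median difference of a Müller gene in pool 1 from the other pools was -0.12.

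Stress and growth groups were mixed. Of 18 antioxidant genes 9 were higher in pool 1, among them the metallothionein Mt2 (16.85, 13.72 and 14.09) and heme oxygenase Hmox1 (11.33, 7.52 and 8.29), while Gpx4 (15.93, 15.86 and 15.96) and catalase (Cat, 10.28, 10.64 and 10.62) were within 0.5. Immediate early genes gave 7 of 17, with Egr1 at 12.10, 9.68 and 9.42 and Fos at 10.57, 9.08 and 8.68, whereas Npas4, which follows neuronal activity, was lowest in pool 1 (8.98, 9.70 and 9.57). Proliferation genes gave 4 of 17, with Mki67 at 9.52, 7.98 and 7.86. Endothelial genes gave 5 of 16, such as the clotting factor gene Vwf at 11.80, 10.07 and 10.12, while Cldn5, the tight junction protein of retinal vessels, read 10.88, 10.84 and 10.69. Matrix genes gave 5 of 10, with the collagen Col3a1 at 10.02, 6.88 and 7.34.

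The particle tubes on the slide of pool 1 did not share this profile to the same degree. For the 1347 genes higher in pool 1, the median Cy5 level was 8.67 on that slide, 8.19 on the slide of pool 2 and 9.16 on that of pool 3, while the median PBS levels were 10.56, 7.77 and 8.15. Of the 1347, 11 (0.817%) were set apart in the same direction by the median particle level of the slide. The share of all genes so set apart is not given here. The median of the slide of pool 3 includes its 2 silicate tubes, in which such genes were high. Single genes were high in Cy5 on the slide of pool 1. Saa3 read 12.78 to 13.43 there and 6.43 to 7.96 on the slide of pool 2, and Slpi read 11.91 to 12.14 and 6.43 to 8.36. Pf4 was at 11.35 to 11.65 on the slide of pool 1, Ccl3 at 10.36 to 10.80 and Lcn2 at 15.35 to 15.77, whereas S100a8 was at 7.64 to 8.81.

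Of the 84 genes lower in pool 1, 19 were on the lens list, 6 on that of the pigment epithelium and 4 on that of melanin, and most others were on no list. Of 25 lens genes, 19 were set apart as lower, against 0.364% of all genes. Cryba1 read 11.24, 15.08 and 14.47, 9.35-fold lower than in pool 3, the nearer pool. Cryba2 read 11.08, 14.62 and 14.13, Crybb2 12.08, 14.99 and 14.97, Crygs 13.30, 16.31 and 16.02, and Grifin, a galectin-like lens protein, 8.18, 11.17 and 10.73. Cryaa varied between the arrays of a pool. In pool 1 it read 14.46 and 14.39 on the 20 nm arrays and 13.88 and 13.86 on the 100 nm arrays, where its Cy5 level was 14.06 and 14.50 on the former and 18.49 and 18.39 on the latter. In pool 3 it was 17.16 and 17.35 on the gold arrays and 15.99 and 16.01 on the silicate arrays, and its Cy5 level was again higher on the arrays with the lower Cy3 reading. With the gold arrays alone for pool 3 it read 17.26, and pool 1 was still the lowest. A dimmer Cryaa probe went the other way within pools. In pool 1 that probe read 7.02 and 6.87 on the 20 nm arrays and 7.64 and 7.49 on the 100 nm arrays. In pool 3 it read 10.04 and 10.02 on the gold arrays and 10.19 and 10.15 on the silicate arrays.

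For the pigment epithelium, 6 of 8 genes were lower in pool 1. Rpe65, which regenerates the visual chromophore, read 9.76, 11.52 and 12.55. Ttr, a carrier of retinol-binding protein, read 11.70, 13.73 and 14.29, and Rgr, an opsin of that tissue, 9.87, 11.64 and 12.51. All 8 genes were lowest in pool 1 and highest in pool 3, with no gene out of order. Melanin genes stepped up in the same way for 9 of 10. Dct, an enzyme of melanin synthesis, read 9.91, 11.74 and 13.81, so that it was set apart both in pool 1 and in pool 3. Tyrp1, its relative, read 7.83, 9.10 and 10.56, and the melanosome matrix gene Pmel 7.43, 8.66 and 10.41. Mitf, the master factor of pigment cells, did not follow (10.80, 10.27 and 10.41). Dct in the particle tubes lay between 12.45 and 15.91.

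**Figure D4:**
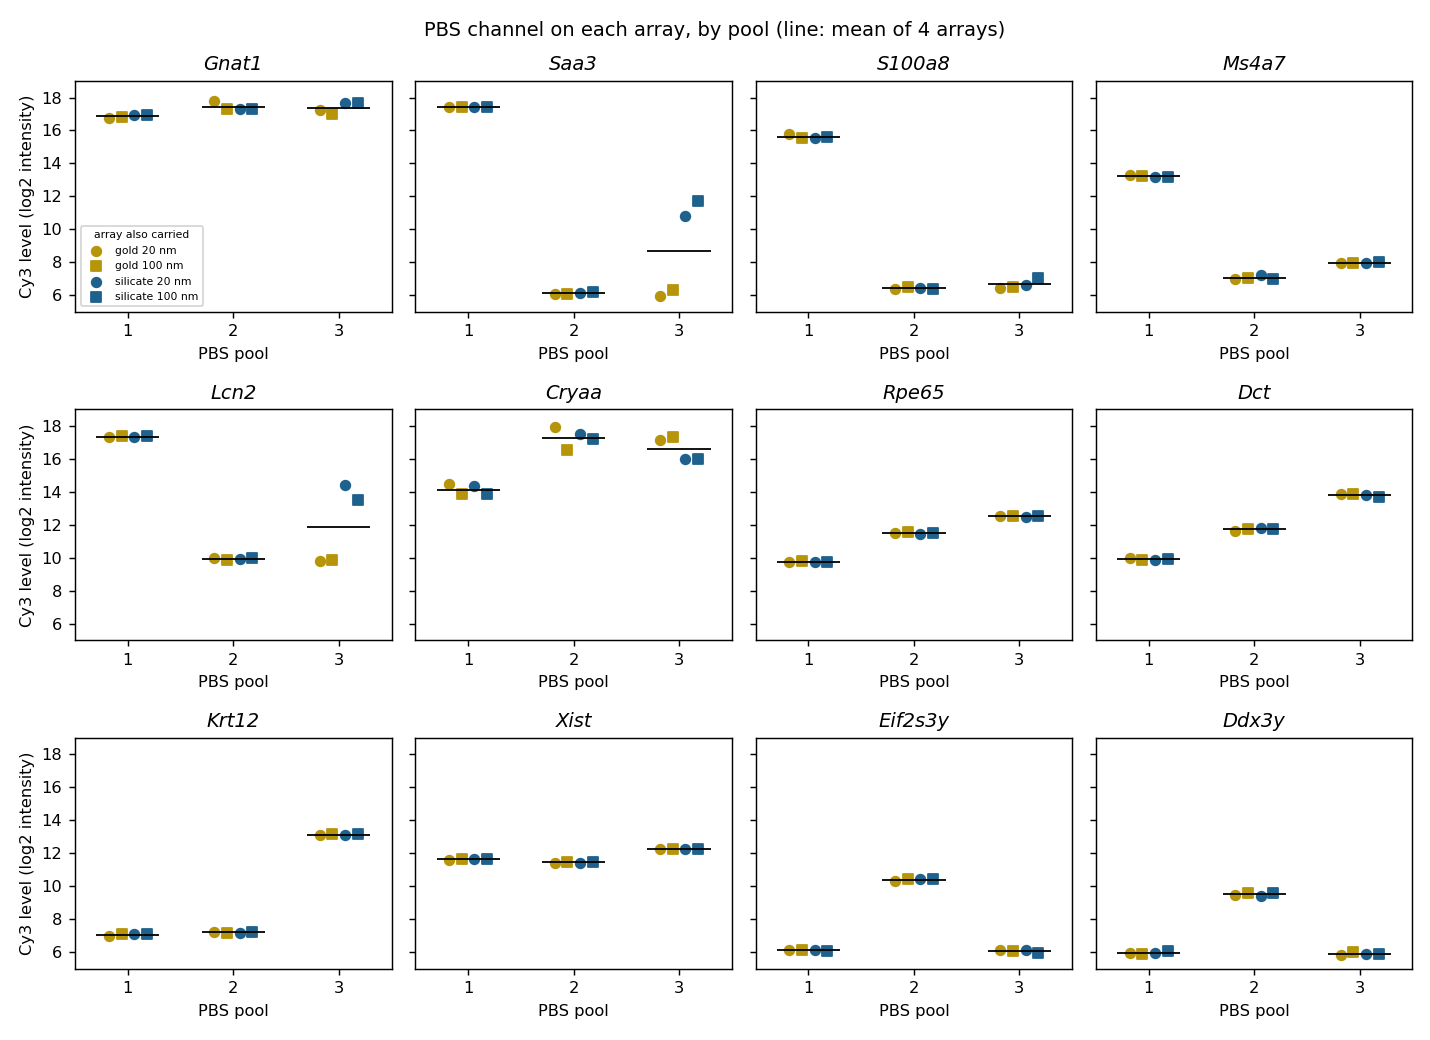
Cy3 level (log2 intensity) of 12 genes on each array of the 3 PBS pools, with symbols for the particle tube that shared the array and a line for the mean of 4 arrays. Saa3 and Lcn2 split by array within pool 3, at 5.99 to 11.72 and 9.81 to 14.40, whereas Krt12 (13.12 to 13.16 in pool 3) and Eif2s3y (10.32 to 10.46 in pool 2) do not.

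Pool 3 was marked by genes of surface epithelium. Krt12, the keratin of the corneal epithelium, read 7.07, 7.21 and 13.15, 61.4-fold above pool 2. Slurp1, a protein secreted by that epithelium, read 6.89, 7.14 and 12.27, and Krt6b, a keratin of stratified epithelium, 7.57, 7.79 and 12.56. The mucin gene Muc4 read 7.33, 7.19 and 11.74, and the epithelial genes Plet1, Calml3 and Krt5 reached 12.07, 11.45 and 11.92 in pool 3. Upk3bl, a uroplakin relative, read 8.47, 8.60 and 12.05. Lce3a, a gene of the cornified envelope, and the annexin Anxa8 closed the first 10, at 10.59 and 10.02 in pool 3. Of the 13 corneal and surface epithelium genes above background, 7 were set apart in pool 3, against 0.381% of all genes. All 13 were well above background in pool 3, but only 9 in pool 1 and 10 in pool 2, so some were counted only through pool 3. Keratins were not all alike, since Krt18 read 14.24, 14.02 and 13.86, and Krt14 7.17, 7.24 and 7.50. Kera and Krt4 were not above background in any pool.

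These epithelial signals were the same on the gold and silicate arrays of pool 3, with Krt12 at 13.12 to 13.16. Of the 88 genes higher in pool 3, 87 were also set apart on the gold arrays alone, and 0 were set apart by the median particle level of the slide. Krt12 in those particle tubes was 8.21 to 9.30. On 1 array of pool 1, Krt5 read 10.82 while the lowest of the 4 read 7.53, and its highest Cy5 level on that slide was 14.44. In pool 3 the epithelial genes stood beside pigment genes, of which Dct, Mlana, Tyrp1 and Pmel were set apart, and beside the highest globin levels. Whether these groups had a common source was not tested.

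Pool 2 had few genes of its own. Eif2s3y and Ddx3y, described above, were at least 18.3-fold and at least 9.94-fold higher than in pool 1. Crygf and Cryge, gamma crystallins of lens fibres, read 10.16, 11.84 and 9.76, and 11.10, 12.77 and 11.03. With Cryga (10.95, 13.15 and 12.12) they made 3 lens genes, and pool 2 was the highest of the 3 pools for 23 of 25 lens genes. Tbx5, a transcription factor of the dorsal retina, read 8.17, 9.49 and 7.94, and Cyp26b1, which breaks down retinoic acid, 9.09, 10.14 and 8.78. Ecel1, an endopeptidase-like gene, read 8.52, 9.82 and 7.50, set apart as high in pool 2 and low in pool 3. The other gene lower in pool 3 is a transcript without a symbol here. Syt10, a synaptotagmin, and Stox1 read 8.93 and 8.26 in pool 2. Tbx5, Ecel1, Syt10, Stox1 and Cyp26b1 exceeded the nearer pool by only 1.05 to 1.32 units.

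Of the 86 genes lower in pool 2, the chemokine, interferon and microglia lists held 5 each and the class II list 3, and most were on no list. Plac8, a gene of myeloid cells and epithelium, read 12.43, 7.40 and 11.09, and Ifitm1, an antiviral membrane protein, 13.10, 8.54 and 11.49. A dimmer Plac8 probe read 8.43 to 8.58 on the arrays of pool 1, 6.46 to 6.90 on those of pool 2 and 7.04 to 7.42 on those of pool 3. By that probe, pool 2 lay less than 1 unit below pool 3. Oasl1, an interferon-induced gene, read 11.04, 7.45 and 10.48. Emp1, an epithelial membrane protein, read 11.44, 8.09 and 13.08. For these 4 the arrays of pool 3 read alike, such as 11.04 to 11.17 for Plac8, although its Cy5 level there was 8.12 and 8.25 on the gold arrays and 12.62 and 13.50 on the silicate arrays. H2-Eb1, a class II gene, read 12.87, 8.01 and 10.80, but 9.64 and 9.66 on the gold arrays of pool 3 against 11.54 and 12.36 on the silicate arrays. Of the 86 genes lower in pool 2, 50 were also set apart on the gold arrays alone. With only the gold arrays used for pool 3, 53 genes in all were set apart as lower in pool 2, a total and not a part of the 86. The median particle level of the slide set 46 of the 86 (53.5%) apart in the same direction, with no share over all genes given beside it. That median includes, on the slide of pool 3, its 2 silicate tubes. For the 86 genes, the median Cy5 level was 9.89, 8.51 and 10.44 on the slides of pools 1, 2 and 3.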

How the data were processed

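The deposited files hold 1 scan each in units of intensity. The file headers name Agilent Feature Extraction 11.0.1.1 as the software that read the scans. The submitters' processing notes give version 9.3.2.1. Median Cy3 foreground and median local background were corrected with normexp in limma 3.58.1 (R 4.3.3), with an offset of 50, and quantile-normalized over the 12 arrays on the log2 scale. Cy5 was treated in the same way on its own. Outlier and control spots were left out, and spots of 1 probe averaged, which left 39429 probes. Of these, 28317 were well above background on all 4 arrays of at least 1 pool. The brightest such probe stood for its gene, and 4391 of 23093 genes had more than 1. Accessions were matched to RefSeq symbols (GRCm38.p6), used for names because the arrays were annotated on mm9, and 26055 of 39429 probes received one.

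No test was run, because the arrays of a pool were treated as readings of 1 sample. Gene groups come from 42 lists, and a few of their members are not reported here. The members and lists were chosen with earlier results of these data known. Named genes were the 20 of highest level, the 10 highest and 5 lowest by gap in each pool, the 5 of smallest range among the 500 brightest, and list members of highest level, of widest range or defining a list. All folds given are of intensities with the offset included. Where a probe was not well above background on any array of the dim pool, the fold is a bound against each array's floor, which is its dimmest probe marked well above background.

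Alternatives were plain subtraction, the deposited processed signal (also an intensity), scaling to the 75th percentile, loess with Aquantile, gold or silicate arrays alone, the median of 4 arrays, other filters, every probe, a threshold of 2 log2 units, no rule on overlap, and leaving out each pool. The median of a gene's probes and gold arrays for pool 3 alone were added after seeing the data.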

Additional observations from a re-analysis of the deposited data

Results flagged for a closer look

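The gold 100 nm array of pool 1 had 74.34% of its spots well above background in Cy3, against 71.16% to 71.35% on the other 3 arrays of that pool. It lay far from the others by the Dixon criterion for 4 values, which chance meets in about 1 in 20 such groups. The criterion was applied in each pool to this share, the median Cy3 foreground and the number of outlier spots. No other value met it. Its median Cy3 foreground, 248.5, was between those of the others.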

How the results depend on the processing

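No paired analysis was possible because the replicate number is the pool itself and the results come from no test. The alternatives were run for the 41 calls of genes named by their gap in a pool, and none of those that could be read changed direction. With only probes well above background on all 12 arrays, 31 of these calls could be read. Genes named for other reasons were not followed singly. The median difference of pool 1 changed sign in 1 of 5 scalings for ribosomal protein genes (-0.01) and for growth factor genes (0.07). Pool 3 had more genes higher than lower except without pool 2, where 291 were higher and 1437 lower. With plain subtraction the counts were 209 lower in pool 1, 29 higher and 217 lower in pool 2, and 146 higher and 28 lower in pool 3, and the neutrophil range was 5.39. With the processed signal they were 288, 46, 266, 154 and 47, 2332 in all, and the neutrophil range was 6.68. With only probes well above background on all 12 arrays, that range was 1.49, against 3.05 as reported. At a threshold of 2 log2 units the counts were 587 and 14 in pool 1, 2 and 14 in pool 2, and 34 and 0 in pool 3 (higher, then lower), 643 in all. Gold arrays alone gave 20 higher and 51 lower in pool 2 and 7 lower in pool 3, silicate arrays alone 134 lower in pool 2 and 1 lower in pool 3. Gold arrays in pool 3 alone gave 53 lower in pool 2 and 15 lower in pool 3. Scaling to the 75th percentile left 0 lower in pool 3, and the median of 4 arrays 4. Leaving out each pool gave 1437 to 1480 higher and 148 to 291 lower in pool 1, 22 to 148 higher and 195 to 1480 lower in pool 2, 195 to 291 higher and 22 to 1437 lower in pool 3, and 217 to 1728 in all. Here a gene higher in 1 of the remaining pools is lower in the other, by construction. The range between pools was then 0.08 to 0.62 for rod, 0.26 to 3.05 for neutrophil, 0.54 to 2.29 for interferon, 0.65 to 2.01 for pigment epithelium, 0.50 to 2.24 for lens and 0.25 to 1.77 for corneal genes, lowest without pool 1 except for corneal genes, lowest without pool 3. Other causes were not tested. Every probe counted was not run for the list ranges, and the filter could not be left out of the count of genes above background, which it defines. Of the genes named by their gap in a pool, Cryga, Stox1, Ecel1 and Cyp26b1 came within 1 unit of another pool in 1 to 3 settings each. Levels under about 6.33, the highest array floor, have no order, and 20 of 604 list members had probes that disagreed by at least 1 unit on pool 1.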

Other observations

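Of 18 growth factor genes, 3 were set apart as higher in pool 1: Cntf, a survival factor for photoreceptors, at 11.90, 10.71 and 10.88, Fgf2 at 9.57, 7.32 and 7.64, and the placental growth factor gene Pgf at 8.59, 7.00 and 7.13. Vegfa, which drives vessel growth, read 11.96, 12.08 and 12.08, and Bdnf, a neurotrophin, 9.33, 9.34 and 9.32. Igf1 turned with the probe. Its brightest probe was lowest in pool 1 (9.40, 10.11 and 9.83), while 2 others were highest there (9.51, 8.79 and 8.90, and 9.04, 8.49 and 8.63). Of 9 pericyte and smooth muscle genes, only Anpep was set apart, as higher in pool 1 and as lower in pool 2 (11.20, 6.79 and 8.58, with 7.26 on the gold arrays of pool 3). It encodes an aminopeptidase also known in myeloid cells. Of 13 ciliary body and vitreous genes, 1 was set apart as lower in pool 1, the prostaglandin synthase gene Ptgds (14.37, 15.49 and 16.13). None of the 10 astrocyte and oligodendrocyte genes and none of the 10 skeletal muscle genes above background was set apart, with medians of 9.49, 9.47 and 9.56 for the former and 6.90, 7.05 and 7.19 for the latter.

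F10, a clotting factor gene among the 20 of highest level, was read differently by its probes. The brightest gave 17.11, 16.93 and 17.17 in pools 1, 2 and 3. Another read 13.15 to 13.32 on the arrays of pool 1, 6.24 to 6.33 on those of pool 2 and 6.37 to 7.79 on those of pool 3, so that the choice of probe sets whether this gene differs between pools.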
